A study of Mus musculus with 3 samples.

Results

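The genes described here encode the components of the Polycomb complexes themselves. The question was whether a histone mark that some of these complexes write lay over these genes. Members were the 35 genes of a fixed list, out of 21631 autosomal and X-linked genes that code for protein. A region was tied to a member when the authors' annotation named the gene for it, in any location class, or when it overlapped the mm10 bounds of the gene. By that rule 53 of the 7838 regions of replicate 1 and 49 of the 8093 regions of replicate 2 belonged to members.

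The samples were 2 biological replicates of chromatin immunoprecipitation with sequencing (ChIP-seq) for ubiquitinated histone H2A (H2AK119ub), with 1 input library that was not used here. All were prepared from lingual (tongue) epithelium of newborn control animals, aged postnatal day 0. The alleles behind "control", the strain and the sex were not given in the sources used here, and no mutant or treated group was analysed. After the posterior tongue with the circumvallate papillae had been cut off, epithelial cells were sorted by their surface protein EpCAM, and libraries were built from 4 ng of DNA. The lists of called regions hold no read counts, so widths and positions are what was measured. They give no expression either, so the sorted cells could be checked only by which markers carried the mark. A promoter region named 1 of 6 epithelial markers in both replicates (Krt15) and 1 in replicate 2 alone (Krt5), with Epcam, Krt14, Trp63 and Cdh1 in neither. It named 4 of 7 markers of other cells in both (Myod1, Sox10, Pdgfra and Vim), with Ptprc, Cdh5 and Pecam1 in neither.

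Polycomb repressive complex 1 (PRC1) attaches ubiquitin to H2A through the RING proteins Ring1 and Rnf2, each of which pairs with a Pcgf protein that sets the type of complex. Canonical PRC1 adds a Cbx protein, which binds methylated histone H3, and a Phc protein, which joins complexes into chains, whereas variant PRC1 carries Rybp or Yaf2 instead. PRC2 methylates lysine 27 of histone H3, and the deubiquitinase of Bap1 and Asxl1 removes the H2A mark again. In skin and other stratified epithelia Polycomb complexes are known for keeping genes of other lineages silent.

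Regions of the mark lay at the listed Cbx genes and at several Phc and Pcgf genes, and none was called over the genes of the RING enzymes. In all, 11 of the 35 members (31.4%, exact 95% interval 16.9 to 49.3%) were marked, meaning that a promoter region named the gene in both replicates, and the background was 8.82% of all protein-coding genes. By single replicates a promoter region named 15 members in replicate 1 and 12 in replicate 2, where the backgrounds were 12.8% and 12.4%. Of the other members, 5 had a promoter region in 1 replicate only (background 7.6%), 1 had only regions of other classes in both replicates, 2 had such a region in 1 replicate, and 16 had none in either. That last share was 45.7% of members, beside 71.5% of all protein-coding genes. Any region at all was tied to 19 members in at least 1 replicate and to 16 in both (45.7%, background 16.8%). A region overlapped the gene itself for 15 members in replicate 1 and 13 in replicate 2 (background 18.1% in each) and for 12 in both (background 13.3%). Under wider rules 16 members were named by a promoter region of either replicate (background 16.4%), 16 by a region of any class in both (background 15.3%), and 14 had a region within 5000 bp of a gene end in both (background 14.1%). The members were proposed with earlier results known, so these shares are descriptions.

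By class, 3 of the 4 listed Cbx genes were marked (Cbx6, Cbx7 and Cbx8) and the remaining one, Cbx2, had a promoter region in replicate 1. Among the Phc and Scm genes 3 of 5 were marked (Phc1, Phc2 and Scmh1), and among the Pcgf genes 2 of 6 (Bmi1 and Pcgf1). Of 7 accessory genes of variant PRC1, 2 were marked (Rybp and Kdm2b). In PRC2, none of the 4 core genes and 1 of the 5 accessory genes (Phf19) was marked. Neither of the PRC1 catalytic genes and neither of the deubiquitinase genes had a region in either replicate. The classes hold 2 to 7 genes each, too few to set their shares apart.

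**Figure D1:**
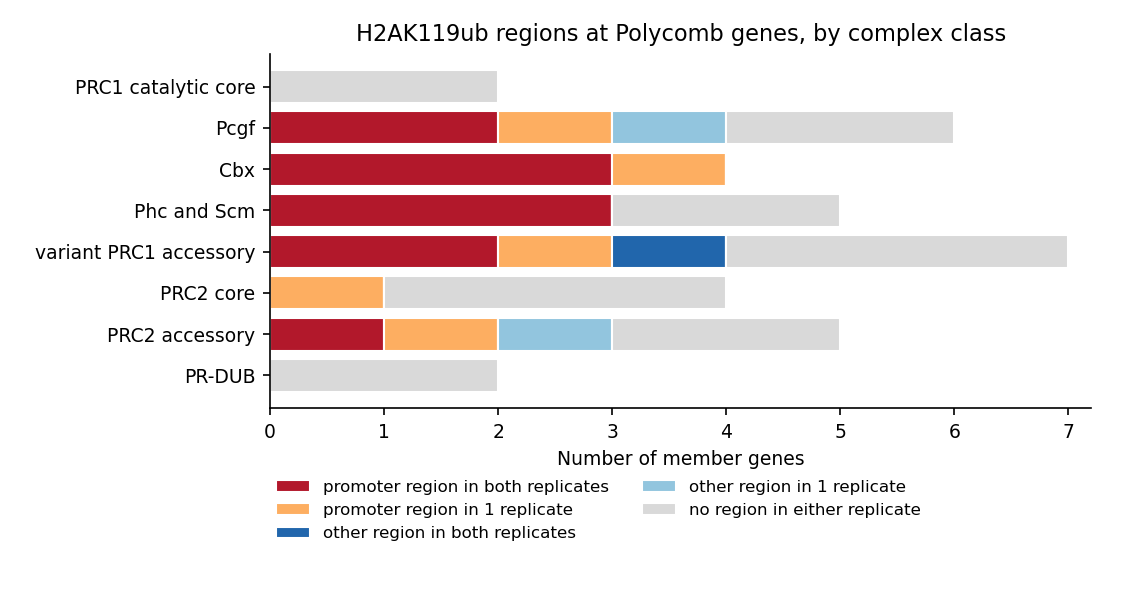
Number of member genes in each complex class (rows), coloured by the kind of H2AK119ub region tied to the gene in the 2 replicates. All 4 listed Cbx genes have a promoter region in at least 1 replicate, while the 2 genes of the PRC1 catalytic core and the 2 PR-DUB (deubiquitinase) genes have none.

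Cbx2 and Cbx8 encode chromodomain proteins of canonical PRC1 and lie 5.03 kb apart on chromosome 11. In replicate 1 a promoter region of 23.6 kb at chr11:119016794-119040404 named both genes and covered all of Cbx2 (chr11:119023019-119031275). A second promoter region of 33.2 kb, chr11:119041495-119074729, named Cbx8 alone. In replicate 2 the matching regions were chr11:119033374-119040521, 7.15 kb wide, and chr11:119041549-119075865, 34.3 kb wide, and both named Cbx8. The wider Cbx8 region therefore had nearly the same bounds in both replicates, and it stood at the 98.2 percentile of width in the list of replicate 1 and at the 99.1 percentile in that of replicate 2.

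The body of Cbx2 was covered over 100% of its length in replicate 1 and 0% in replicate 2, where the nearest region began 2.10 kb beyond the gene. Distal regions upstream carried the name of Cbx2 in both lists, 9.08 and 7.60 kb wide in replicate 1 and 7.18 and 3.18 kb wide in replicate 2. From the first of these to the end of the Cbx8 region, a span of 83.2 kb, regions covered 88.5% in replicate 1 and 62.2% in replicate 2. The bases covered in both replicates made up 67.5% of those covered in either.

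Cbx6 and Cbx7 encode further chromodomain proteins and lie 81.5 kb apart on chromosome 15. Cbx6 (chr15:79823898-79834333) had promoter regions of 15.4 kb (chr15:79818111-79833531) and 7.03 kb (chr15:79835882-79842908) in replicate 1, and 1 of 8.78 kb (chr15:79827544-79836321) in replicate 2. All of these also carried the name Npcd. A further gene body region of 2.65 kb in replicate 2 named Npcd but lay over Cbx6. Cbx7 was named by promoter regions of 6.35 kb (chr15:79929269-79935622) in replicate 1 and of 8.38 kb (chr15:79928291-79936669) in replicate 2. Distal regions of 12.1 kb (chr15:79954886-79967009) and 3.15 kb (chr15:79963828-79966975) also carried its name in replicates 1 and 2 and lay inside the bounds of the reference gene, which reach 79971143.

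Among the Pcgf genes, Pcgf1, the partner of the RING enzymes in the complex with Kdm2b and Bcor, lay in the widest region. In replicate 1 this was 34.8 kb at chr6:83055321-83090116 and also named Tlx2, Aup1, Htra2, Dqx1 and Lbx2, of which Tlx2 and Lbx2 are developmental homeobox genes. Replicate 2 had regions of 15.4 kb (chr6:83062078-83077503, named with Tlx2) and 15.8 kb (chr6:83078719-83094531, named with Lbx2) on either side of a short break. That break fell at the start coordinate of the 3.30 kb gene (chr6:83077552-83080855). Every region that named Pcgf1 therefore also named a homeobox neighbour.

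Bmi1, the Pcgf protein of canonical PRC1 known for stem cell maintenance, was named in both replicates, but by regions that did not overlap. Replicate 1 had a 5.47 kb region inside the gene (chr2:18677804-18683270) and replicate 2 a 10.01 kb region upstream (chr2:18665990-18676000), which also named Commd3. Of the 11 marked members, 10 had promoter regions that overlapped between replicates, as did 98.5% of all marked genes, so that Bmi1 was the exception. Regions named for the neighbour Spag6, of 10.05 and 21.2 kb in replicates 1 and 2, reached into the 3′ end of Bmi1.

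Pcgf2, the canonical partner related to Bmi1, was named by a 2.71 kb promoter region of replicate 2 alone (chr11:97699891-97702600), shared by name with Psmb3. In replicate 1 the nearest region ended 0.128 kb from the other end of the gene and named Cisd3. Pcgf5, of a variant complex, had 1 gene body region of 1.99 kb in replicate 1 and none in replicate 2. Pcgf3 and Pcgf6 had no region, the nearest lying 87.8 and 86.3 kb from Pcgf3 and 16.2 and 14.2 kb from Pcgf6 in replicates 1 and 2.

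The Phc and Scm genes encode proteins that polymerise through SAM domains. Phc1 was named by promoter regions of 3.33 kb (chr6:122335934-122339265) in replicate 1 and of 0.95 kb (chr6:122338364-122339314) in replicate 2. The region of replicate 2 stood at the 2.48 percentile of width in its list and was the narrowest promoter region of any member. Phc2 had regions of 7.22 kb (chr4:128646719-128653934) in replicate 1 and 5.76 kb (chr4:128647961-128653725) in replicate 2, with a further 3.29 kb region (chr4:128689153-128692441) in replicate 1. That further region lay 0.415 kb beyond the second of the 3 listed starts of Phc2.

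Scmh1 had promoter regions of 5.52 kb (chr4:120398958-120404478) in replicate 1 and 3.43 kb (chr4:120401252-120404683) in replicate 2. Upstream, distal regions of 20.4 kb (chr4:120360200-120380645) in replicate 1 and 10.6 kb (chr4:120369906-120380550) in replicate 2 named it as well, with 1 more of 2.43 kb (chr4:120356606-120359032) in replicate 1. Inside the gene lay regions of 10.4 kb (chr4:120511372-120521797) in replicate 1 and 1.84 kb (chr4:120516754-120518593) in replicate 2. Phc3 and Scml2 had no region, and for Scml2, on X, the nearest was 1137 and 1585 kb away in replicates 1 and 2.

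**Figure D2:**
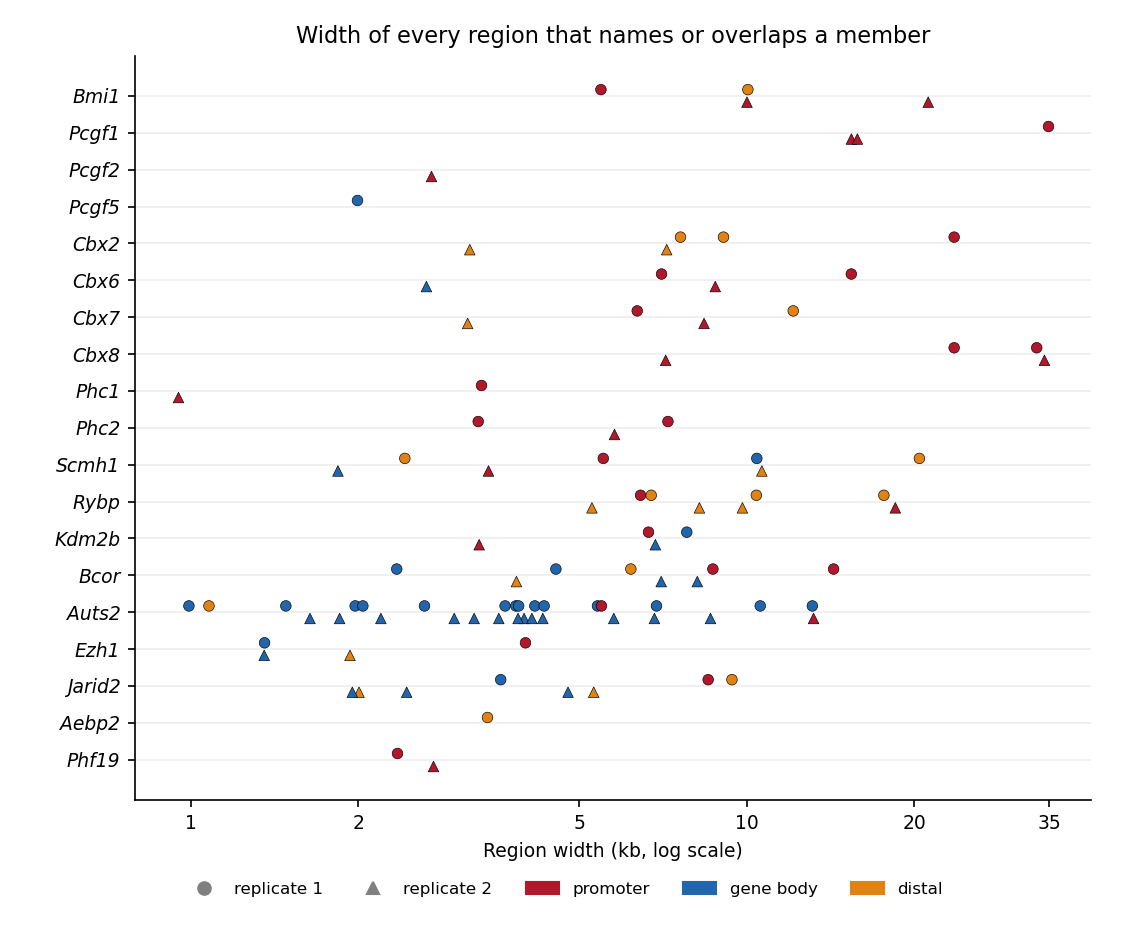
Width in kb (horizontal, log scale) of each region that names or overlaps a member (rows, the 19 members with any region), with circles for replicate 1 and triangles for replicate 2, coloured by location class. The widest are the Pcgf1 region of replicate 1 (34.8 kb) and the Cbx8 regions of both replicates (33.2 and 34.3 kb), and the narrowest is that of Phc1 in replicate 2 (0.95 kb).

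Among the accessory genes of variant PRC1, Rybp, which takes the place of a Cbx protein and stimulates ubiquitination, had a chain of regions on one side of the gene. In replicate 1 it consisted of a promoter region of 6.44 kb (chr6:100287772-100294213) and distal regions of 17.6 kb (chr6:100300116-100317761), 10.4 kb (chr6:100321585-100331991) and 6.73 kb (chr6:100333278-100340010). In replicate 2 it consisted of a promoter region of 18.5 kb (chr6:100288313-100306817) and distal regions of 9.82 kb (chr6:100308358-100318180), 8.22 kb (chr6:100324421-100332641) and 5.27 kb (chr6:100333998-100339264). Over the 52.7 kb beyond the gene end these covered 78.3% in replicate 1 and 79.4% in replicate 2, and bases covered in both were 72.3% of those covered in either. No region touched the gene itself (chr6:100228565-100287358). Its paralogue Yaf2 had none within 257 kb in replicate 1 or 187 kb in replicate 2.

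Kdm2b, whose CXXC domain binds unmethylated CpG and brings variant PRC1 to CpG islands, had its promoter regions at or near inner rather than outer starts. The promoter regions measured 6.66 kb (chr5:122896719-122903376) in replicate 1 and 3.30 kb (chr5:122900622-122903923) in replicate 2. Inner starts are listed at 122900350 and 122900367, inside the region of replicate 1 and 272 and 255 bp from that of replicate 2. From the outermost start at 122989099 the nearest region was 12.5 kb away in replicate 1 and 34.0 kb away in replicate 2. Gene body regions of 7.80 kb (chr5:122948262-122956062) and 6.85 kb (chr5:122948216-122955065) in replicates 1 and 2 had nearly the same bounds.

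Bcor, the corepressor of the Pcgf1 complex, is on X. In replicate 1 it had promoter regions of 14.3 kb (chrX:12145733-12160062) and 8.69 kb (chrX:12074640-12083331). In replicate 2 a region of 8.15 kb (chrX:12147932-12156080) lay within the first of these, but ended 4.28 kb from the outermost listed start and was classed as gene body. Bcorl1, also on X, and L3mbtl2, of the Pcgf6 complex, had no region. The nearest to L3mbtl2 was a region named for Chadl at 3.59 kb in replicate 1, and in replicate 2 none lay within 251 kb.

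Auts2, which joins the Pcgf3 and Pcgf5 complexes and is best known in neurons, was the member with the most regions. The gene spans 1106 kb of chromosome 5, and 15 regions lay over it in replicate 1 and 14 in replicate 2, covering 6.37% and 5.98% of its length. A single one in each replicate was of the promoter class, and it named the gene 4930563F08Rik inside Auts2, not Auts2 itself. Between replicates, 8 of the 15 and 7 of the 14 overlapped a region of the other list, and bases covered in both were 25.96% of those covered in either. Of 226 other protein-coding genes of at least 500 kb, none had as many regions in either replicate. Their maximum was 8 in replicate 1 and 12 in replicate 2, with a median of 0 in each. These counts were not adjusted for gene length, and Auts2 is far longer than the 500 kb limit.

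In PRC2, 3 of the 4 core genes had no region. Ezh2, the methyltransferase of dividing cells, Eed, which binds the methylated histone, and Suz12, the scaffold, were these 3, with the nearest region lying 51.2 and 50.8 kb from Ezh2, 43.8 and 54.3 kb from Eed and 27.0 and 78.8 kb from Suz12 in replicates 1 and 2. Ezh1, the methyltransferase more common in resting cells, had a gene body region of 1.36 kb in both replicates (chr11:101211043-101212400 and chr11:101211018-101212373), at nearly the same place. Upstream it had a 4.00 kb promoter region (chr11:101228213-101232212) in replicate 1, and a 1.93 kb region inside that interval (chr11:101229362-101231295) in replicate 2 that was classed as distal.

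Of the PRC2 accessory genes, Phf19, a Polycomb-like protein that binds CpG-rich DNA, was marked by regions of 2.35 kb (chr2:34914357-34916706) in replicate 1 and 2.73 kb (chr2:34914670-34917395) in replicate 2. Its relatives Mtf2 and Phf1 had none. Jarid2, which links PRC2 to ubiquitinated H2A, had 3 regions in replicate 1 and 5 in replicate 2, the widest being distal regions of 9.41 kb (chr13:44687675-44697080) and 5.31 kb (chr13:44691861-44697166). The promoter region of replicate 1 (chr13:44721599-44730122, 8.52 kb) contained a 2.01 kb region of replicate 2 (chr13:44723041-44725048) that ended 5.73 kb from the start and was classed as distal. Aebp2 had a distal region of 3.41 kb in replicate 1, 25.0 kb from the gene, which a region of replicate 2 with another gene name overlapped.

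Of the 5 members with promoter regions in 1 replicate only, 4 (Cbx2, Bcor, Ezh1 and Jarid2) had such a region overlapped by one in the other replicate. Pcgf2 did not, and neither did the second promoter region of Bcor, of 8.69 kb. Among all 1644 protein-coding genes named in 1 replicate only, the share with such an overlap was 20.5%. The 5 members are few and the share was not matched for region width, so this is a description. For Bcor, Ezh1 and Jarid2 the overlapping region was shorter, had its edge farther from the start and stood in another location class. For Cbx2 it carried the name of Cbx8.

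Among members with no region, Ring1, a ubiquitin ligase that writes the mark, lay 15.9 and 15.4 kb from the nearest region in replicates 1 and 2. The other ligase gene, Rnf2, lay 112 and 181 kb from one. Bap1, which removes ubiquitin from H2A, was 531 kb from a region in both, and that region named Sfmbt1. Its cofactor gene Asxl1 was 49.3 and 9.92 kb away. Over all 16 members without a region the median distance was 46.6 kb in replicate 1 and 82.5 kb in replicate 2.

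The promoter regions of members were wider than the median of the list in replicate 2 and narrower in replicate 1. Counting a region once for each member it names, the median was 7026 bp in replicate 1 and 7762.5 bp in replicate 2, with a mean of 7394 ± 521 bp (SD, n = 2). The medians over all promoter regions were 8080 bp in replicate 1 and 6843 bp in replicate 2. The 13 and 11 distal regions tied to members in replicates 1 and 2 had medians of 9082 and 5266 bp, beside 3844 and 3289.5 bp for all distal regions of those lists. Some of these lay at the same gene, as at Rybp and Cbx2 in both replicates, so few genes stand behind the medians. Members' regions overlapped one of the other replicate in 39 of 53 cases (73.6%) in replicate 1 and 39 of 49 (79.6%) in replicate 2, beside 61.1% and 61.2% of all regions.

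The position of the regions relative to the start of transcription was measured for the members named by a promoter region. A start was listed for 12 of the members named by a promoter region in replicate 1 and for 10 of those in replicate 2. It lay inside a region for 1 of the 12 (8.33%, exact 95% interval 0.211 to 38.5%) and for 2 of the 10 (20%, 2.52 to 55.6%). Over all protein-coding genes named by a promoter region it lay inside for 62.8% of 2107 in replicate 1 and 63.1% of 2036 in replicate 2. This measure was chosen after seeing the data, and the same genes recur in both replicates. The intervals treat the genes of a fixed list as independent draws, so the shares are descriptions. Among members with a listed start the start was inside for Cbx7 in both replicates and for Cbx6 in replicate 2. A listed start can lie inside the gene bounds. That of Cbx7 is at 79932646, while its bounds reach 79971143, and no region covered that outer bound. That of Pcgf2 is at 97699648, outside the region of replicate 2, which did cover the outer bound at 97702434. Members without a listed start could be added where both or neither of their gene ends lay in a region. In replicate 1 this put Cbx2 and Pcgf1, whose bounds were covered over 100% of their length, inside and Rybp outside, which gave 3 of 15 members (20%) beside 61.0% of all 2467 genes so counted. In replicate 2 it put Rybp outside and could not place Pcgf1, which gave 2 of 11 (18.2%) beside 60.9% of 2394.

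Cbx8 had regions on both sides of its start. The gap ran from 582 bp upstream to 509 bp downstream of the start in replicate 1 and from 636 bp upstream to 392 bp downstream in replicate 2. Both gaps were close to the smallest in the lists, 1000 bp in replicate 1 and 999 bp in replicate 2. A much shorter gap could not have appeared, so their like size in the replicates is partly given by that limit. Cbx6 in replicate 1 had a wider gap, from 1549 bp upstream to 802 bp downstream. For Phc2 the region stopped 768 bp upstream in replicate 1 and 977 bp upstream in replicate 2, and for Scmh1 870 and 665 bp upstream in replicates 1 and 2. Phf19 was alike, at 381 and 694 bp upstream. Its listed start lies inside the gene bounds, however, and the regions were 4 and 317 bp from the outer bound in replicates 1 and 2. For Phc1 the region began 962 and 913 bp downstream, inside the gene. Bmi1 differed between replicates, at 786 bp downstream in replicate 1 and 1018 bp upstream in replicate 2.

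**Figure D3:**
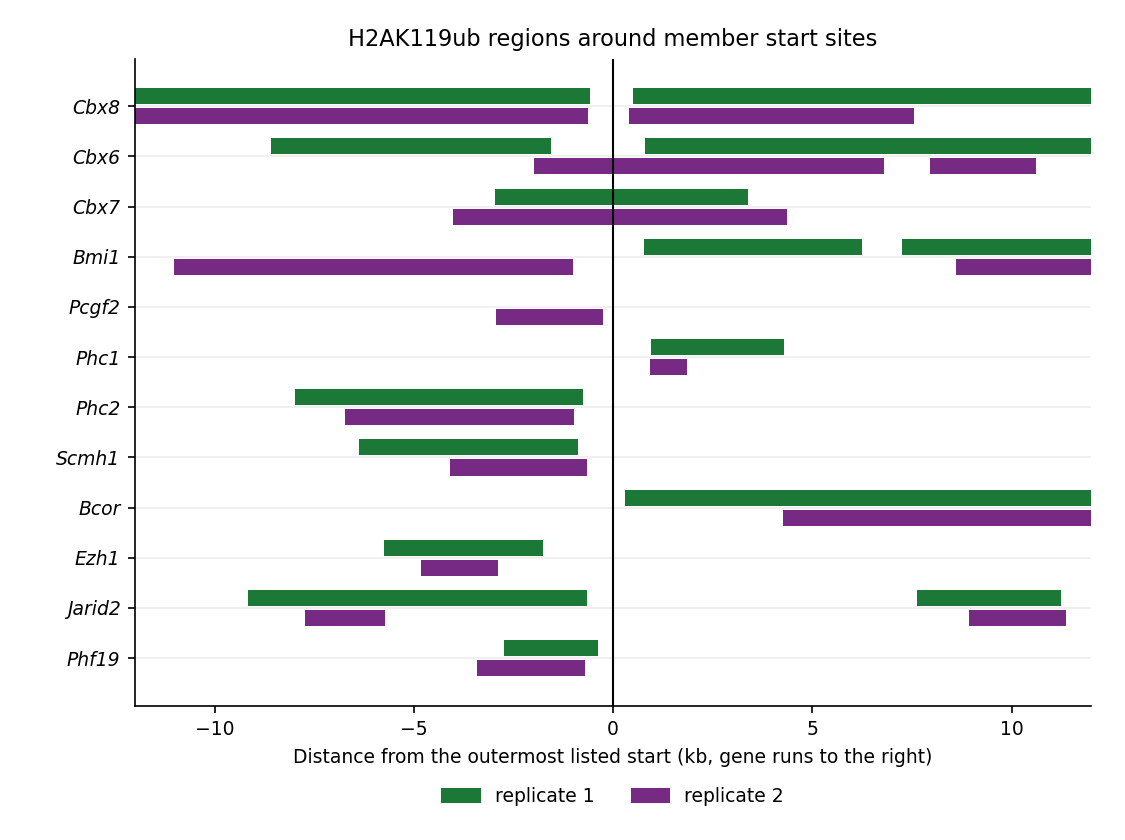
H2AK119ub regions (bars, clipped at 12 kb) of replicate 1 (upper, green) and replicate 2 (lower, purple) by distance in kb from the outermost listed start of 12 members, oriented so that each gene runs to the right. Among these 12, only the Cbx7 regions of both replicates and the Cbx6 region of replicate 2 cross the start, and Cbx8 has a region on either side of it in both replicates.

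Where a listed start of a member lay outside, it was close to a region in most cases. The distance was at most 2000 bp for 10 of 11 members in replicate 1 and 7 of 8 in replicate 2, with Kdm2b as the exception in each. Its median was 786 and 803.5 bp in replicates 1 and 2, and among all such genes 827 and 850 bp. Upstream and downstream positions were about equally common, 6 and 5 in replicate 1 and 5 and 3 in replicate 2. Among all such genes they were 379 and 405 in replicate 1 and 365 and 387 in replicate 2. Of these genes, 679 in replicate 1 and 655 in replicate 2 were within 2000 bp, so most of them were close to a region too. All were selected because a promoter region named them, so closeness to the start was partly given by that rule.

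Width moves with this measure. Of all genes whose widest naming region was under 5 kb, 28.0% had the start inside in replicate 1 and 34.2% in replicate 2, whereas from 5 to 10 kb the shares were 67.6% and 66.9% and above 10 kb 83.2% and 85.5%. Members with a listed start had, under 5 kb, 0 of 3 starts inside in replicate 1 and 0 of 5 in replicate 2. From 5 to 10 kb they had 1 of 6 and 2 of 3, and above 10 kb 0 of 3 and 0 of 2. With Cbx2, Pcgf1 and Rybp added from their gene bounds, the counts above 10 kb were 2 of 5 in replicate 1 and 0 of 3 in replicate 2, where 83.1% and 85.6% of all genes so counted had the start inside. The part of width in the members' pattern was not tested.

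**Figure D4:**
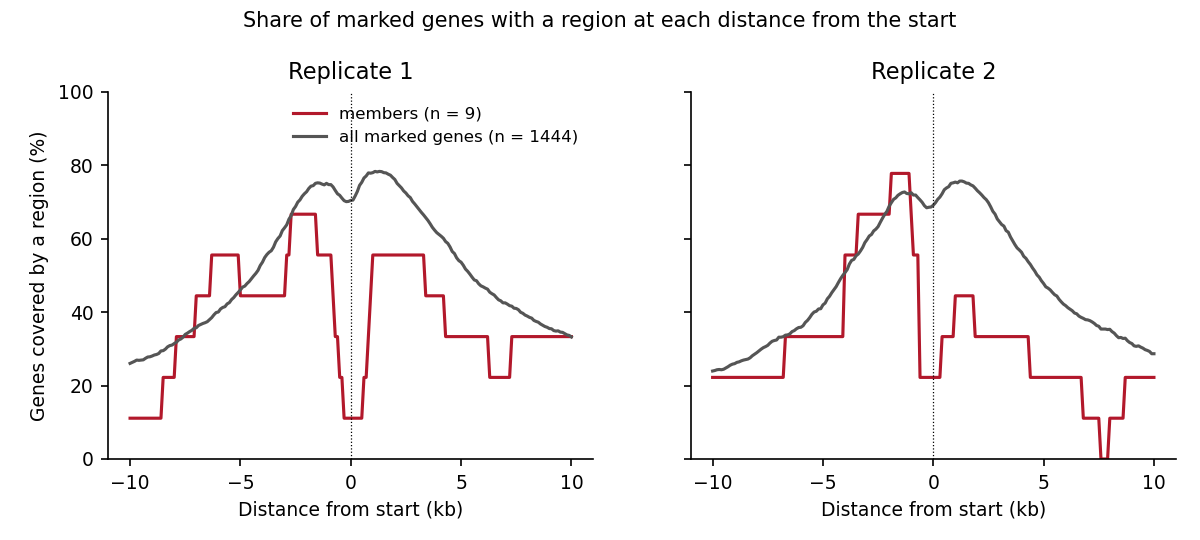
Share of marked genes covered by a region (vertical, %) at each distance from the outermost listed start (horizontal, kb), for the 9 marked members with a listed start (red) and all 1444 such protein-coding genes (grey) in each replicate. At the start itself 11.1% of members and 70.4% of all marked genes are covered in replicate 1, and 22.2% and 69.1% in replicate 2.

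At 1000 bp upstream of the start, 55.6% of the 9 marked members were covered in replicate 1 and 66.7% in replicate 2, beside 74.7% and 72.5% of all 1444 marked genes with a listed start. At the start itself the shares were 11.1% and 22.2% of these 9 members and 70.4% and 69.1% of all such genes. At 1000 bp downstream they were 55.6% and 44.4% of the members in replicates 1 and 2, beside 78.0% and 75.4%. At 2000 bp downstream they were 55.6% and 33.3%, beside 76.1% and 73.1%. The lower coverage of members therefore extended to these downstream positions, but it did not hold at every distance upstream. At 3000 bp upstream the shares were 44.4% and 66.7% of the members in replicates 1 and 2, beside 63.0% and 59.8%. At 6000 bp upstream they were 55.6% and 33.3%, beside 40.0% and 35.9%. Pcgf1 and Rybp, also marked, have no listed start and are not among the 9, of which each is worth 11.1%.

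The bases just before the start were compared between members with flanking regions and members with none, since PRC1 is known to be drawn to CpG-rich promoters. The sequences below are the 250 bases upstream of the start (RefSeq, GRCm38.p6), 5′ to 3′ on the strand of the gene, with each CpG in capitals. The first set shows members whose regions stopped short of the start in at least 1 replicate: Cbx8 (minus strand, chr11:119040914-119041163), Cbx6 (minus strand, chr15:79834334-79834583), Bmi1 (plus strand, chr2:18676768-18677017) and Phc1 (minus strand, chr6:122340228-122340477).
Cbx8: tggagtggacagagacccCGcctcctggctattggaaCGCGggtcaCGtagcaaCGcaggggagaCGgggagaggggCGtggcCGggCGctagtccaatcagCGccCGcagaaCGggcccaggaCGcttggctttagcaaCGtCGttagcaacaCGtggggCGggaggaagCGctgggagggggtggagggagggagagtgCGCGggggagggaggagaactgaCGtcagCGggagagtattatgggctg
Cbx6: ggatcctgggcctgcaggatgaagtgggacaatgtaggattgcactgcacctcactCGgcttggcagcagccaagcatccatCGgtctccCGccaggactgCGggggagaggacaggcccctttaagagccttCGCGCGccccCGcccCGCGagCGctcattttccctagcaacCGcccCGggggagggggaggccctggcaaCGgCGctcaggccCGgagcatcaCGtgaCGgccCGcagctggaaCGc
Bmi1: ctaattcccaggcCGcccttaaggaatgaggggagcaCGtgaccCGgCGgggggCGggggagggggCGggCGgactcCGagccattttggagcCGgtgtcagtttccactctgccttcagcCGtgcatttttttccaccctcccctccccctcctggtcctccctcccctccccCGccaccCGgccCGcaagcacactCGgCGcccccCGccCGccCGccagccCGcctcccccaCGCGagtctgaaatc
Phc1: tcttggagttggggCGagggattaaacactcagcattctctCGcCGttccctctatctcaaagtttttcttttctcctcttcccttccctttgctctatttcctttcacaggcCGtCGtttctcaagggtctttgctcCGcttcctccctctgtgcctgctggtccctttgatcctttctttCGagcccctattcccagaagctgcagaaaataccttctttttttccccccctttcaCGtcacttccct

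These 4 stretches held 22, 20, 21 and 8 CpG in the order given, the fewest being in Phc1. The second set shows core members with no region over them, the ligase genes Ring1 (minus strand, chr17:34024681-34024930) and Rnf2 (minus strand, chr1:151500992-151501241) and the PRC2 genes Eed (minus strand, chr7:89980977-89981226) and Suz12 (plus strand, chr11:79992856-79993105).
Ring1: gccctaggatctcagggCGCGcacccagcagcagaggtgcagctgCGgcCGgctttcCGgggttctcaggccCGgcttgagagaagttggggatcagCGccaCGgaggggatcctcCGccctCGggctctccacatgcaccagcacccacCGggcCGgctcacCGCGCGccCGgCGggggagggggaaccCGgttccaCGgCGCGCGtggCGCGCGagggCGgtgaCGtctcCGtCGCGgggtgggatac
Rnf2: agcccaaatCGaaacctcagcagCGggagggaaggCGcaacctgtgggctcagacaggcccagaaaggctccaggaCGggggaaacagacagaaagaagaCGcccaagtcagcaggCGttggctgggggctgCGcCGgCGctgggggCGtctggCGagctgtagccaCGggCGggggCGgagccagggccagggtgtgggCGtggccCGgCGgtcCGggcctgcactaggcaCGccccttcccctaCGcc
Eed: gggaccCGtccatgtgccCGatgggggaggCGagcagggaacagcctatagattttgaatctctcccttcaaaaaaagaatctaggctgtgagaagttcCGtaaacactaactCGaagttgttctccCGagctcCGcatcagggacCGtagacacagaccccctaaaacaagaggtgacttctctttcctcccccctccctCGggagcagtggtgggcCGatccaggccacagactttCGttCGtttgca
Suz12: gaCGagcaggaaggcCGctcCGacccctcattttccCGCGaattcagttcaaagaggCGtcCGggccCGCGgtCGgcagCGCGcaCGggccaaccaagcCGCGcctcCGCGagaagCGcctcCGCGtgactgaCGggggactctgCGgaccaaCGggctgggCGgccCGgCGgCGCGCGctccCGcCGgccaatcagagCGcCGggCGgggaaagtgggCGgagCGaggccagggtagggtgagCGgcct

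These held 30, 20, 12 and 37 CpG in the order given, so that Eed had fewer than Cbx8, Cbx6 and Bmi1 and the counts of the sets overlapped. In the 300-base window around the start, which reaches 50 bases into the gene, the 9 marked members with a listed start had a median of 28 CpG (range 9 to 54) and the 15 members with no region had 23 (13 to 50). The ranges overlapped almost entirely. The median was 20 over all marked genes and 14 over all protein-coding genes with a listed start.

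**Figure D5:**
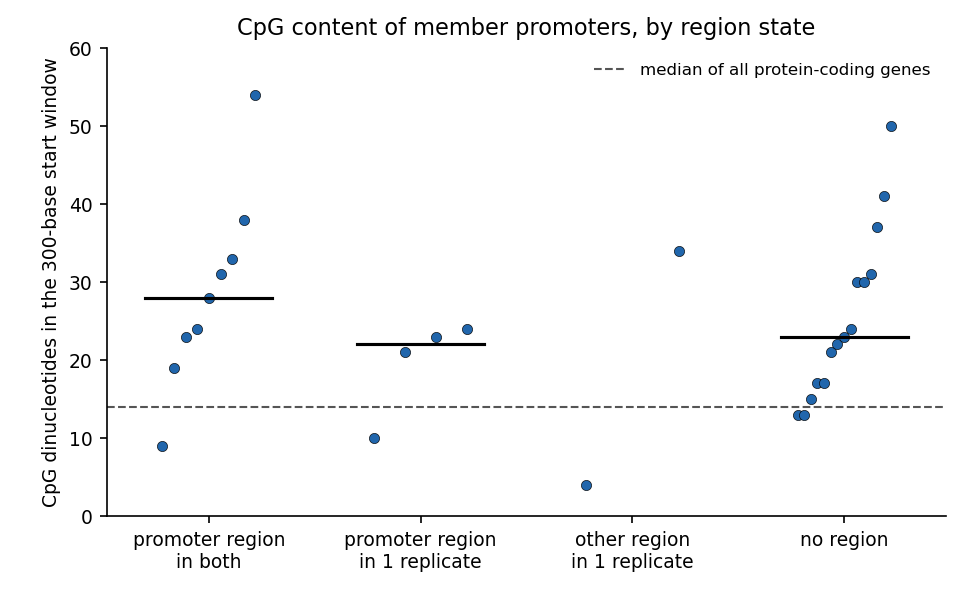
CpG dinucleotides in the 300-base window around the outermost listed start (vertical) for each member (points), grouped by the kind of region tied to it, with the group median as a bar for groups of more than 2 and the median of all protein-coding genes (14) as a dashed line. Members marked in both replicates (median 28) and members with no region (median 23) overlap, and both medians lie above the dashed line.

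Motifs tied to DNA-binding factors of variant PRC1 were searched for in these windows. CACGTG, an E box that Mga and Max can bind, reads the same on both strands and was present in 4 of the 9 marked members (Bmi1, Cbx6, Cbx8 and Phc2) and in 3 of the 15 members with no region. Over all windows of protein-coding genes it was in 8.01%, and over those of all marked genes in 8.86%. Over all 30 members with a listed start, marked or not, it was in 8 (26.7%). GCGGGAA, a core of E2F sites, was searched on both strands and was present in 2 of the 9 and 2 of the 15, beside 6.09% of all windows. Neither motif contains the other. Both contain a CpG, and the 30 members had a median of 23.5 CpG per window, beside 20 for all marked genes and 14 for all genes. The shares were not matched for CpG content. A match is a description of the letters, not of binding.

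Genes of the wider Polycomb system were counted in the same way. Of 36 genes that encode further subunits, demethylases, deubiquitinases and readers, 4 (11.1%) were marked, beside the background of 8.82%. They were E2f6 (10.2 and 8.53 kb in replicates 1 and 2), the DNA-binding repressor of the Pcgf6 complex, Epop (5.17 and 20.1 kb), a PRC2 partner, and Sfmbt2 (11.04 and 11.95 kb) and Sfmbt1 (5.74 and 3.54 kb), proteins with MBT repeats. Foxk2 was named in replicate 1 alone (0.672 kb) and Fbrsl1 in replicate 2 alone (3.42 kb). The remaining 30 were named by a promoter region in neither. Among them were the histone-binding subunit genes Rbbp4 and Rbbp7, the demethylase genes Kdm6a and Kdm6b and the deubiquitinase genes Usp16 and Mysm1. A region still lay over Kdm6b in replicate 2, over Mga in replicate 1 and over Scml4 in both.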

How the data were processed

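H2AK119ub ChIP-seq regions of 2 replicates were analysed, and the input library was not used here. The authors deposited 1 list per replicate with a first and last coordinate in mm10 (other values: positions in bp), a location class and the genes assigned, per the file headers. The tools recorded in the submitters' processing notes, without a role, were Bowtie2 2.3.3 and SAMtools 0.1.19. How peaks were called, whether the input entered that step and which distances define each class is not given in the sources used here. These deposited lists give no height, count or p-value, so the depth is unknown and widths and positions are the only measures. The smallest gap between neighbouring regions was 1000 bp in replicate 1 and 999 bp in replicate 2, so a shorter interruption cannot appear as a gap.

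Names were matched to the RefSeq gene table of GRCm38.p6 by symbol or unique synonym, and 11 of 3392 promoter names in replicate 1 and 10 of 3276 in replicate 2 did not match. Overlap was counted from 1 bp, and width was the last minus the first coordinate. Start sites and the 300-base windows around them came from the RefSeq promoter table of the same build, which lists 30 of the 35 genes. The entries of Pcgf1, Cbx2, Rybp, Yaf2 and Auts2 are missing. For genes with several starts the outermost one was used.

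The members and lists were chosen with earlier results of these data known, and the start site analysis was chosen after seeing the data. All members are accounted for, with every region of those marked in both replicates. No test was run, since there is 1 group of 2 replicates. The counting was tested on simulated lists. Exact (Clopper-Pearson) 95% intervals cover counting error only. Alternatives were single replicates, gene-end distances, any location class, wider regions, a 50% mutual overlap, leaving out X and merging neighbours. Python 3.11.15, numpy 2.4.6, pandas 2.3.3, scipy 1.17.1 and matplotlib 3.10.9 were used.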

Additional observations from a re-analysis of the deposited data

How the results depend on the processing

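For 14 results, 48 values were computed under alternatives, of which 41 stayed within the limits set. For counts the limit was a ratio of 1.5 to the main value. The results are counts and a median width, which have no direction to reverse. A count from a single replicate or from either replicate cannot fall below the count from both. The count of marked members, 11 (background 8.82%), was 11 without X. From single replicates it was 15 in replicate 1 (background 12.8%) and 12 in replicate 2 (background 12.4%). Under the other rules for tying genes to regions the count was 10 to 16, and the background moved with the rule. It was 10 with a region within 1000 bp of a gene end in both replicates (background 9.93%) and 14 within 5000 bp (background 14.1%). It was 16 with any location class in both (background 15.3%) and 16 with a promoter region of either replicate (background 16.4%). It was 7 (6.31% of all genes) with only regions above the median width of their list and 5 (6.39% of all genes) when the promoter regions of the replicates had to cover at least 50% of each other, which left Cbx7, Cbx8, Phc2, Scmh1 and Phf19. Both alternatives keep fewer regions by construction. For the PRC2 core the count of 0 was 0 to 1 from single replicates and 1 with a region within 5000 bp of a gene end in both replicates, the added gene being Ezh1. For the PRC2 accessory genes the count of 1 was 1 to 2 from single replicates. With any listed start in place of the outermost one, chosen after seeing the data, 2 members instead of 1 had a start inside a region in replicate 1, through the inner starts of Kdm2b. With members that have no listed start added from their gene bounds, also chosen after seeing the data, the count in replicate 1 was 3, through Cbx2 and Pcgf1, and in replicate 2 it was 2. No paired analysis was possible because the replicates form 1 group and no groups were compared. Without read counts, depth and region strength are unknown, and an absent region may be one below the threshold of the peak caller.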
